A study of Danio rerio with 6 samples.

Results

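Collagen genes were examined in zebrafish neuroblastomas. They are the rows of the deposited count table whose symbol starts with col, a type number, the letter a and a chain number. The rule found 27 of 14781 rows. One of these, col4a3bpa, encodes a ceramide transfer protein first named as a collagen-binding protein and was put in no class, which left 26 collagen genes: 13 of the fibrillar types, 3 of the basement membrane types and 10 others. All 26 matched a RefSeq gene of assembly GRCz12tu by symbol or synonym, where col18a1 is now called col18a1a and col28a1d is called col28a1b. RefSeq names 60 genes by the same pattern, and those under other symbols, among them col4a1, col4a2 and the type VI genes, were not analysed here.

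The tumours were taken from the peripheral sympathetic nervous system of transgenic fish. All fish overexpressed the oncogene MYCN. In 3 tumours (MYCN-only) this was the whole genotype, and in the other 3 (knockout) gas7 was knocked out as well. The labels give neither the promoter of the transgene, the mutation in gas7, nor the age of the fish. Whether each tumour came from its own fish is not stated, and p-values describe the variation among these 6 samples. GAS7 belongs to the F-BAR family of membrane-bending, actin-linked proteins, and by its title the series asks whether tumours driven by MYCN spread more without it.

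Collagens are trimers of chains that wind around each other through a repeated motif that starts with glycine. Fibrillar collagens assemble into the tensile fibres of connective tissue and cartilage and come mainly from fibroblasts, osteoblasts and chondrocytes. Basement membrane collagens form or border the sheet under epithelia and endothelia and around muscle and Schwann cells. In neuroblastoma in general, matrix is produced largely by the stroma (fibroblasts, Schwann cells and vessels) around the tumour cells.

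Total counts ran from 12054844 to 33305326 and were higher in every knockout tumour than in any MYCN-only tumour. gas7a was read at 14.8, 13.9 and 10.03 CPM (counts divided by the TMM-scaled total of the library, the unit of levels throughout) in knockout tumours 1, 2 and 3 and at 23.0, 9.69 and 32.7 CPM in MYCN-only tumours 1, 2 and 3, and since these ranges overlap the genotype labels are not checked by it. The sympathetic markers th, dbh, hand2 and phox2bb were read at 153 CPM or more in all 6 tumours. Of 12 tested sympathetic markers, 9 were lower in the knockout (median log2 fold change -0.4). For 4 of them every knockout tumour lay below every MYCN-only tumour, against 12.3% of all tested genes. edgeR called 0 of them at an adjusted p under 0.05. Knockout tumours 2 and 3 stood apart: 15 measured markers of ovary and oocyte summed to 6451 and 8614 CPM there, to 29.6 CPM in knockout tumour 1 and to between 7.91 and 11.8 CPM in the MYCN-only tumours. Results are therefore given also without knockout tumour 1, and with knockout tumour 1 as the sole knockout sample, the latter fit having been added once these levels were seen.

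As a family, the collagen genes were lower in the knockout tumours. Together they took 0.0346%, 0.154% and 0.0471% of all counts in knockout tumours 1, 2 and 3 and 0.211%, 0.387% and 0.168% in MYCN-only tumours 1, 2 and 3. Every knockout tumour thus lay below every MYCN-only tumour in this sum, although knockout tumour 2 came close. By class, only the basement membrane sum was separated in this way. The fibrillar sum was 1384 CPM in knockout tumour 2 and 1327 CPM in MYCN-only tumour 3. The sum of the other types was 29.06 CPM in knockout tumour 2 and 28.12 CPM in MYCN-only tumour 1. In bulk tumours, fewer cells of a type and less RNA per cell cannot be told apart.

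Of the 26 genes, 24 passed the low-count filter, each with tumours of both genotypes above its minimum, and 18 were above it in all 6 tumours. The fold change was below 0 for 20 of the 24 tested collagen genes, against 47.6% of all 12821 tested genes, with a median log2 fold change of -1.23 (0.04 over all tested genes). For 13 of them every knockout tumour was lower than every MYCN-only tumour, against 12.3% of all genes, and for 0 every knockout tumour was higher, against 11.6%. edgeR's quasi-likelihood test called 0 collagen genes at an adjusted p under 0.05, and 0% of all genes. At an unadjusted p under 0.05 it had 11 lower (7.57% of all genes) and 0 higher (11.5%).

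Other tools and subsets gave more calls. DESeq2 called 6, all lower (4.06% of all genes were called lower and 6.34% higher): col4a5, col15a1b, col18a1, col28a1d, col11a1a and col17a1a. With knockout tumour 1 as the sole knockout sample, 24 of 25 tested collagen genes had a fold change below 0 (median -1.96), against 52.5% of all genes. limma-voom called 0 of the collagen genes and 0.0078% of all genes, with 11 collagen genes lower at an unadjusted p under 0.05 (7.81% of all genes). Without knockout tumour 1, edgeR called 4 as lower, the first 4 of that list (3.51% of all genes were called lower and 11.2% higher). The count of 11 at an unadjusted p depended on single tumours. It was 7 without knockout tumour 1, 7 without knockout tumour 3, 7 without MYCN-only tumour 3 and 4 without MYCN-only tumour 2, against 13.6%, 4.69%, 5.66% and 4.55% of all genes.

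MYCN-only tumour 2 held the highest level of 17 of the 26 genes, and knockout tumour 1 the lowest of 13, one of them tied. Among the knockout tumours, tumour 2 was the highest for 19 genes. MYCN-only tumour 2 was also the richest in epidermal transcripts. The basal keratin gene krt5 was read at 464 CPM there and at 28.8 and 18.6 CPM in MYCN-only tumours 1 and 3, and at 1.69 to 3.74 CPM in the knockout tumours. The 8 epidermis markers summed to between 637 and 1642 CPM in knockout and between 1088 and 3683 CPM in MYCN-only tumours, 6 of the 8 had a fold change below 0 (median log2 fold change -0.87), and edgeR called 0. At an unadjusted p under 0.05 there were 2 lower and 2 higher (7.57% and 11.5% of all genes). The epithelial adhesion genes cdh1 and epcam were the 2 that were higher in every knockout tumour, with log2 fold changes of 1.19 and 4.4 (edgeR adjusted p = 0.201 and 0.192). Without knockout tumour 1 the median of the list was -1.48, with 2 called lower and 2 higher (3.51% and 11.2% of all genes). With knockout tumour 1 alone the median was -0.19. Epidermis was not the only list highest in MYCN-only tumour 2. By mean log2 CPM of tested markers, so were fibroblast and mural (4.68), Schwann (3.42) and cartilage, bone and notochord (1.68) markers. Endothelial, macrophage, sympathetic, and ovary and oocyte markers were highest in other tumours. The part of any of these cells in the collagen levels was not tested.

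**Figure D1:**
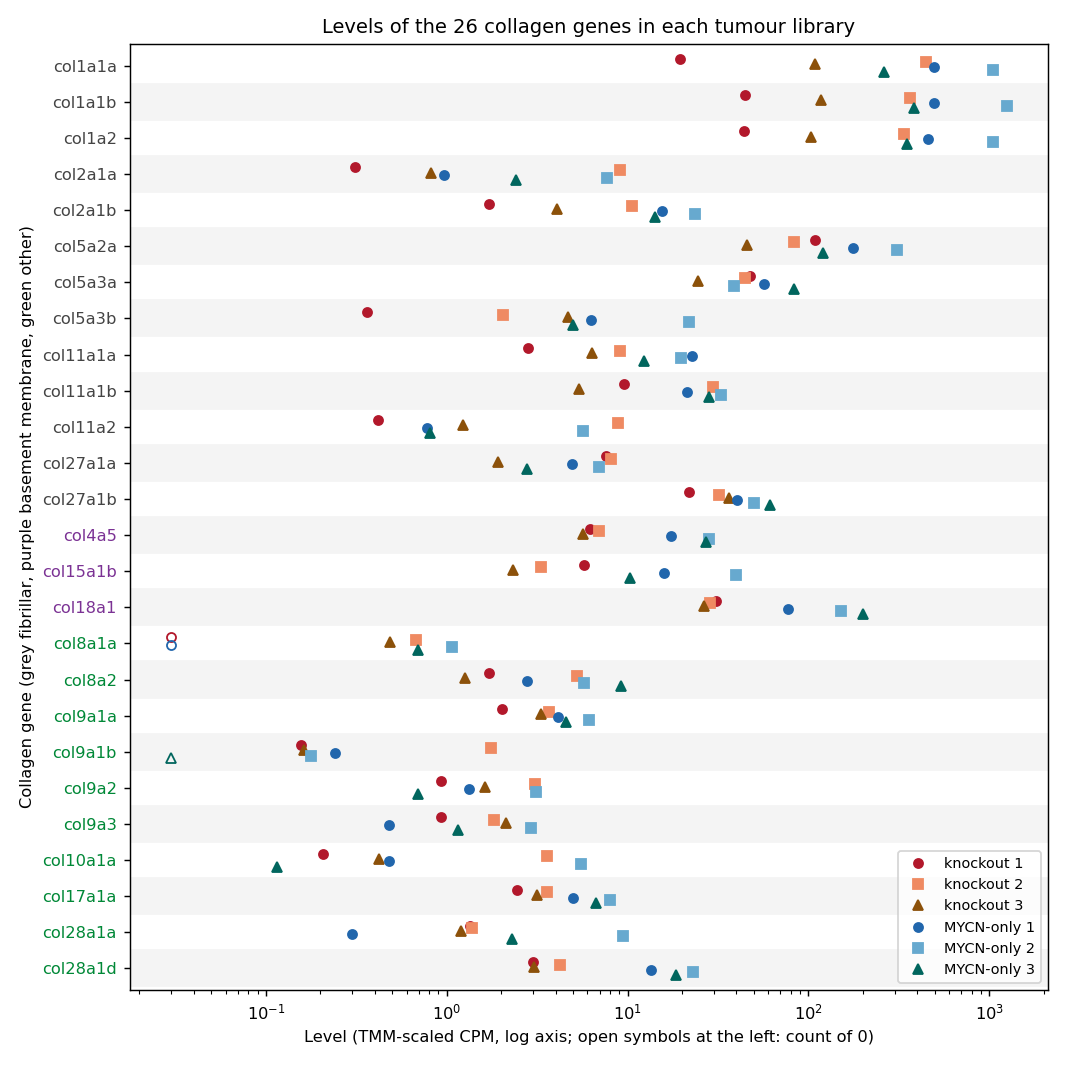
Level of each of the 26 collagen genes (TMM-scaled CPM, log axis) in the 3 knockout tumours (red and brown) and the 3 MYCN-only tumours (blue and green), 1 symbol a tumour, with gene names coloured by class. The tumours of the genotypes separate for col4a5, col15a1b, col18a1 and col28a1d, whereas for the type I genes knockout tumour 2 lies close to the MYCN-only tumours.

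Of the 3 classes, the basement membrane genes varied least among the knockout tumours in their median difference from the MYCN-only mean. The SD of this median, over 3 genes, was 0.204 in log2 CPM. It was 0.991 for the 13 fibrillar and 0.555 for the 8 tested other collagens. Within the class, col15a1b varied more than col4a5 and col18a1. col18a1 encodes the core chain of collagen XVIII, a heparan sulfate proteoglycan whose cleaved end is endostatin. It was read at 31.0, 28.5 and 26.5 CPM in knockout tumours 1, 2 and 3 and at 76.9, 151 and 201 CPM in MYCN-only tumours 1, 2 and 3. The 3 knockout tumours were nearly alike, and the lowest MYCN-only tumour was well above them. Knockout averaged 28.7 ± 2.25 CPM and MYCN-only 143 ± 62.5 CPM (SD, n = 3). The log2 fold change was -2.32 (SE 0.38, edgeR unadjusted p = 0.000633 and adjusted p = 0.174).

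col4a5, a chain of the type IV network that is the scaffold of every basement membrane and the gene mutated in the zebrafish dragnet lines, showed the same arrangement. Its levels were 6.18, 6.98 and 5.70 CPM in knockout tumours 1, 2 and 3 and 17.5, 28.4 and 27.1 CPM in the MYCN-only tumours. No tumour of one genotype reached the range of the other. The log2 fold change was -1.95 (SE 0.31, edgeR unadjusted p = 0.000499 and adjusted p = 0.174), with DESeq2 at an adjusted p of 1.11e-06 and limma-voom at 0.242.

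col15a1b encodes a chain of collagen XV, which like collagen XVIII carries an endostatin-type end and borders the basement membranes of muscle, nerve and capillaries. It was read at 5.76, 3.32 and 2.31 CPM in the knockout and 16.0, 39.6 and 10.3 CPM in the MYCN-only tumours. The groups did not overlap, but the MYCN-only tumours spread widely. Its log2 fold change was -2.53 (SE 0.63, edgeR adjusted p = 0.182).

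The median log2 fold change of the 3 genes was -2.32, and their summed level was 42.9, 38.8 and 34.5 CPM in the knockout and 110, 219 and 238 CPM in the MYCN-only tumours. Within knockout the highest sum was 1.24 times the lowest. All 3 were called lower in DESeq2 and in edgeR without knockout tumour 1 (adjusted p = 0.0179, 0.0224 and 0.0415 for col4a5, col18a1 and col15a1b). Of all genes, DESeq2 called 4.06% lower and edgeR without knockout tumour 1 called 3.51% lower. With knockout tumour 1 as the sole knockout tumour, their log2 fold changes were -1.96 (col4a5), -2.2 (col18a1) and -1.9 (col15a1b), and none was called in edgeR, which called 0.0682% of all genes there. The lone tumour is assumed in that fit to vary like the MYCN-only tumours.

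**Figure D2:**
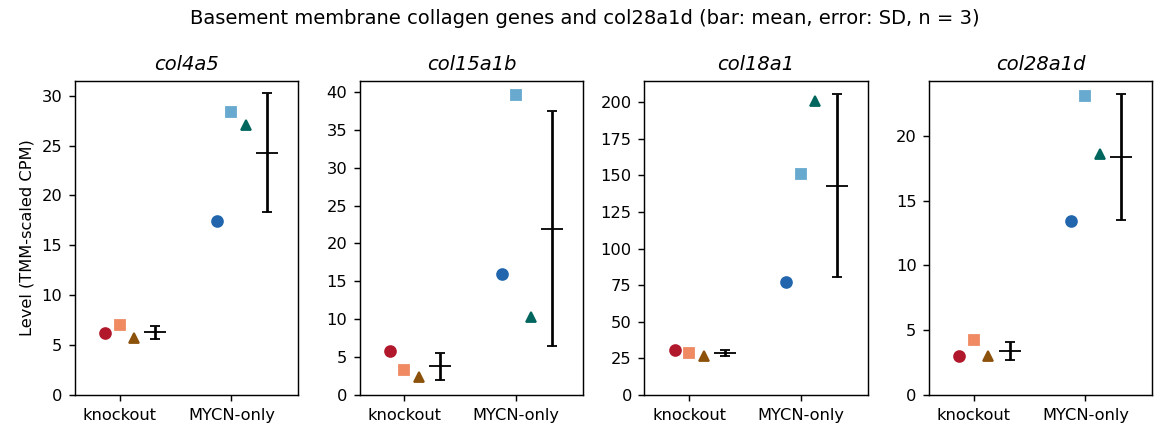
Level (TMM-scaled CPM) of the basement membrane collagen genes col4a5, col15a1b and col18a1 and of col28a1d in the 3 knockout and 3 MYCN-only tumours, with 1 symbol a tumour (circle 1, square 2, triangle 3), the mean and the SD. The highest knockout tumour is below the lowest MYCN-only tumour in each panel, and for col18a1 the knockout tumours lie between 26.5 and 31.0 CPM.

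col28a1d was the collagen gene with the smallest p. It encodes a chain of collagen XXVIII, a short collagen with von Willebrand factor A domains that in mouse is found mainly in peripheral nerve and dorsal root ganglia. Its levels were 3.01, 4.22 and 3.03 CPM in knockout tumours 1, 2 and 3 and 13.4, 23.1 and 18.6 CPM in the MYCN-only tumours. All 3 knockout tumours were at about the same low level. The log2 fold change was -2.42 (SE 0.36, edgeR unadjusted p = 0.000343 and adjusted p = 0.174), -2.34 without knockout tumour 1 (edgeR adjusted p = 0.0156) and -2.59 with knockout tumour 1 alone.

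Most tested markers of Schwann cells were lower in the knockout, as col28a1d was, but most did not follow it across the knockout tumours. The glial transcription factor gene sox10 stood at 1.97, 1.01 and 1.01 CPM in the knockout and 8.05, 10.8 and 3.98 CPM in the MYCN-only tumours. Of 7 tested Schwann markers 6 had a fold change below 0 (median log2 fold change -1.19). edgeR called 0, and an unadjusted p under 0.05 was reached by 4 lower and 0 higher ones (7.57% and 11.5% of all genes). Without knockout tumour 1 edgeR called 2 lower (3.51% of all genes). The 7 summed to 76.8, 45.1 and 39.4 CPM in knockout tumours 1, 2 and 3 and to between 58.6 and 117 CPM in the MYCN-only tumours, and none was at 0. Among the knockout tumours sox10, mbpb, plp1b and foxd3 were highest in tumour 1, and plp1a and egr2b in tumour 3. Only mpz was highest in knockout tumour 2, as col28a1d was. Their part in the level of col28a1d was not tested.

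The paralogue col28a1a did not share the pattern of col28a1d. It was read at 1.35, 1.38 and 1.2 CPM in the knockout and 0.300, 9.42 and 2.31 CPM in the MYCN-only tumours, so the knockout values lay inside the MYCN-only range. Its log2 fold change of -1.6 (edgeR adjusted p = 0.444) became 0.03 without MYCN-only tumour 2. This gene overlaps c1galt1a in GRCz12tu, and without a stated strand setting of the counting, reads of the 2 genes may not be separated.

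The type I genes made up 29.7%, 79.0% and 64.3% of the collagen counts in knockout tumours 1, 2 and 3 and 75.0%, 80.7% and 61.8% in the MYCN-only tumours, and the knockout tumours differed widely in their level. In zebrafish, type I collagen, the main protein of skin, bone and scar, is built from chains of col1a1a, col1a1b and col1a2. col1a2 was read at 44.1, 337 and 104 CPM in knockout tumours 1, 2 and 3, against 460, 1050.1 and 350.01 CPM in MYCN-only tumours 1, 2 and 3. The highest knockout tumour lay just below the lowest MYCN-only tumour. Its log2 fold change was -1.94 (SE 0.81, edgeR unadjusted p = 0.0494 and adjusted p = 0.261).

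col1a1b gave nearly the same picture, at 44.6, 363 and 117 CPM in the knockout and 494, 1249.7 and 383 CPM in the MYCN-only tumours (log2 fold change -2.02, SE 0.83, edgeR adjusted p = 0.259). col1a1a stood at 19.6, 446 and 108 CPM in the knockout and 498, 1044 and 262 CPM in the MYCN-only tumours. Here the groups overlapped, since knockout tumour 2 was above MYCN-only tumour 3 (log2 fold change -1.65, SE 1.07, edgeR adjusted p = 0.427). Summed over the 3 chains, the level was 108, 1146 and 329 CPM in the knockout and 1452, 3344 and 995 CPM in the MYCN-only tumours. The highest knockout tumour had 10.6 times the lowest, against 3.36 times among the MYCN-only tumours.

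The partner chains col1a1b and col1a2 kept close to 1 ratio. Their ratio of counts was 1.01, 1.07 and 1.13 in knockout tumours 1, 2 and 3 and 1.07, 1.19 and 1.09 in the MYCN-only tumours, while the level itself ranged over more than an order of magnitude. The ratio of col1a1a to col1a2 varied more. It was 0.444 in knockout tumour 1 (95% exact Clopper-Pearson interval 0.392 to 0.502), 1.32 in knockout tumour 2 (1.29 to 1.36) and 1.04 in knockout tumour 3 (0.995 to 1.1). In the MYCN-only tumours it was 1.08, 0.995 and 0.748. The ranges of the genotypes overlapped. Only the interval of knockout tumour 3 held the ratio of another tumour, that of MYCN-only tumour 1. These intervals cover counting error alone, and reads of the similar chains may have been divided between them by the counting.

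**Figure D3:**
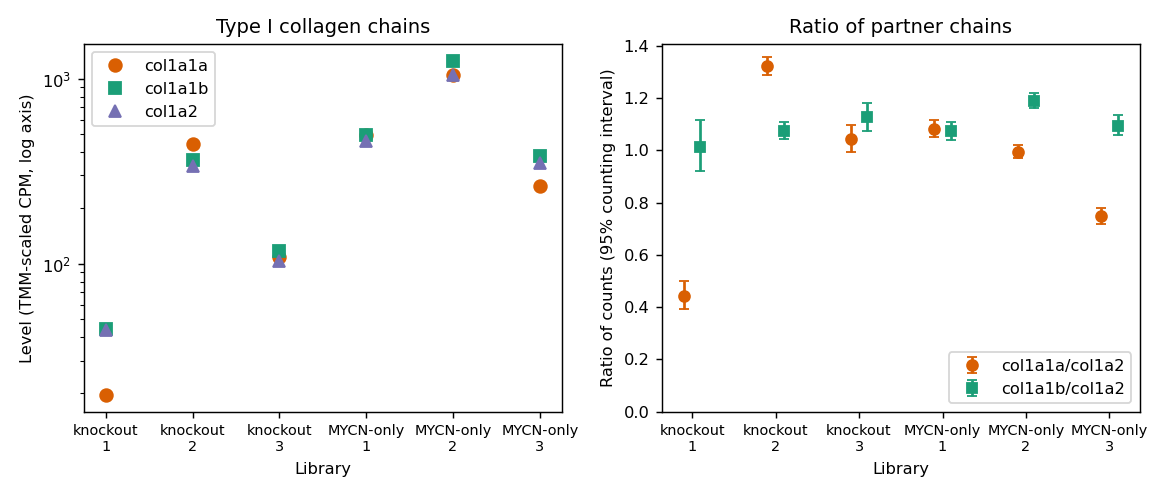
Left, level of the type I chains col1a1a, col1a1b and col1a2 (TMM-scaled CPM, log axis) in each tumour. Right, ratio of counts of col1a1a and of col1a1b to col1a2 with 95% exact intervals of counting error, where col1a1b keeps between 1.01 and 1.19 and col1a1a ranges from 0.444 to 1.32.

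Most tested markers of fibroblasts and mural cells did not follow the type I genes across the knockout tumours. Among these tumours pdgfra, dcn, acta2, tagln, myh11a, twist1a, prrx1a, cxcl12a and tcf21 were highest in knockout tumour 1. Only the low-level genes lum (0.208, 2.84 and 0.358 CPM in knockout tumours 1, 2 and 3) and pdgfrl (0.935, 2.88 and 2.38 CPM) had the order of the type I genes. postnb was highest in knockout tumour 2, as type I was, but lowest in knockout tumour 3 (12.8, 15.3 and 10.4 CPM). It stood at 33.9, 35.6 and 19.7 CPM in the MYCN-only tumours, without overlap. Its p was the smallest of the list (log2 fold change -1.21, edgeR unadjusted p = 0.00857 and adjusted p = 0.187). Knockout tumour 1, with the least type I collagen, had the highest level of the fibroblast receptor gene pdgfra (32.1 CPM, against 18.9 and 11.6 CPM in knockout tumours 2 and 3 and 18.3, 25.4 and 18.7 CPM in the MYCN-only tumours). The 15 matched markers summed to 979 CPM there, of which cxcl12a made up 669 CPM, and to 271 and 194 CPM in knockout tumours 2 and 3. In MYCN-only tumours 1, 2 and 3 they summed to 690, 818 and 499 CPM, which is the order of the type I genes there (1452, 3344 and 995 CPM). Of the 12 tested markers 10 had a fold change below 0 (median log2 fold change -1.12). edgeR called 0, and an unadjusted p under 0.05 was reached by 4 lower and 0 higher ones (7.57% and 11.5% of all genes). Without knockout tumour 1 all 14 genes then tested had a fold change below 0 (median log2 fold change -1.4). edgeR called 3 of them lower in that fit (3.51% of all genes). With knockout tumour 1 as the sole knockout sample the median was -0.89. pdgfrb was listed at 0 in every tumour. The contractile gene acta2 was read at 46.3, 11.4 and 8.14 CPM in the knockout and 91.5, 149 and 58.3 CPM in the MYCN-only tumours. The part of these cells in the type I levels was not tested.

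The minor fibrillar chains of type V, which set the diameter of type I fibrils, were lower too, with exceptions among tumours. col5a2a stood at 109, 83.0 and 45.8 CPM in knockout tumours 1, 2 and 3 and 176, 308 and 120 CPM in the MYCN-only tumours, without overlap (log2 fold change -1.35, SE 0.46, edgeR adjusted p = 0.214). Knockout tumour 1, the lowest for type I, was the highest knockout tumour for col5a2a. For col5a3a the groups overlapped, at 47.8, 44.9 and 24.5 CPM in the knockout and 56.7, 38.8 and 83.6 CPM in the MYCN-only tumours (log2 fold change -0.61, edgeR adjusted p = 0.419). col5a3b was read at 0.363, 2.05 and 4.66 CPM in the knockout and 6.31, 21.9 and 5.02 CPM in the MYCN-only tumours. Its groups did not overlap by a narrow margin (log2 fold change -2.21, SE 0.99, edgeR adjusted p = 0.284). Both col5a3 genes were named outside the rule for named genes.

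Among the cartilage-type fibrillar genes, the members were split. Type II collagen is the main fibre of cartilage, and type XI is its thin partner. col11a1a stood at 2.8, 9.11 and 6.38 CPM in the knockout and 22.7, 19.8 and 12.4 CPM in the MYCN-only tumours, without overlap, and had the smallest p of the fibrillar class (log2 fold change -1.58, SE 0.5, edgeR unadjusted p = 0.0175 and adjusted p = 0.203; DESeq2 adjusted p = 0.0375). col2a1b was separated as well, at 1.71, 10.6 and 4.07 CPM against 15.4, 23.6 and 14.2 CPM (log2 fold change -1.69, SE 0.67, edgeR adjusted p = 0.245). Its paralogue col2a1a, named outside the rule, was not: it was read at 0.311, 9.08 and 0.814 CPM in the knockout and 0.961, 7.73 and 2.42 CPM in the MYCN-only tumours. For col2a1a the highest tumour of each genotype was tumour 2.

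col11a2 had that same arrangement, at 0.415, 8.89 and 1.24 CPM in the knockout and 0.781, 5.69 and 0.808 CPM in the MYCN-only tumours. Its log2 fold change was 0.55 (SE 1.29, edgeR adjusted p = 0.846), became -1.53 without knockout tumour 2 and -2.48 with knockout tumour 1 alone. col11a1b stood at 9.55, 29.9 and 5.41 CPM in the knockout and 21.3, 33.1 and 28.2 CPM in the MYCN-only tumours (log2 fold change -0.88, edgeR adjusted p = 0.479). For col11a1b knockout tumour 2 lay within the MYCN-only range, and the other 2 knockout tumours below it.

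The type XXVII genes, which encode a fibrillar collagen needed for zebrafish vertebral development, had fold changes on both sides of 0. col27a1b was read at 21.9, 31.97 and 36.5 CPM in the knockout and 40.2, 49.8 and 61.7 CPM in the MYCN-only tumours, without overlap (log2 fold change -0.75, SE 0.29, edgeR adjusted p = 0.244). col27a1a, named outside the rule, overlapped at 7.58, 8.11 and 1.92 CPM against 4.93, 6.93 and 2.77 CPM (log2 fold change 0.27, edgeR adjusted p = 0.852). Over the 13 fibrillar genes, 11 had a fold change below 0 and the median was -1.35. Of them 7 were lower without overlap (12.3% of all genes) and 6 were lower at an unadjusted p under 0.05 (7.57%). With knockout tumour 1 as the sole knockout sample the median was -2.69, and without knockout tumour 1 it was -1.12. The members at which these fits differ most are visible in the plot of fold changes.

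**Figure D4:**
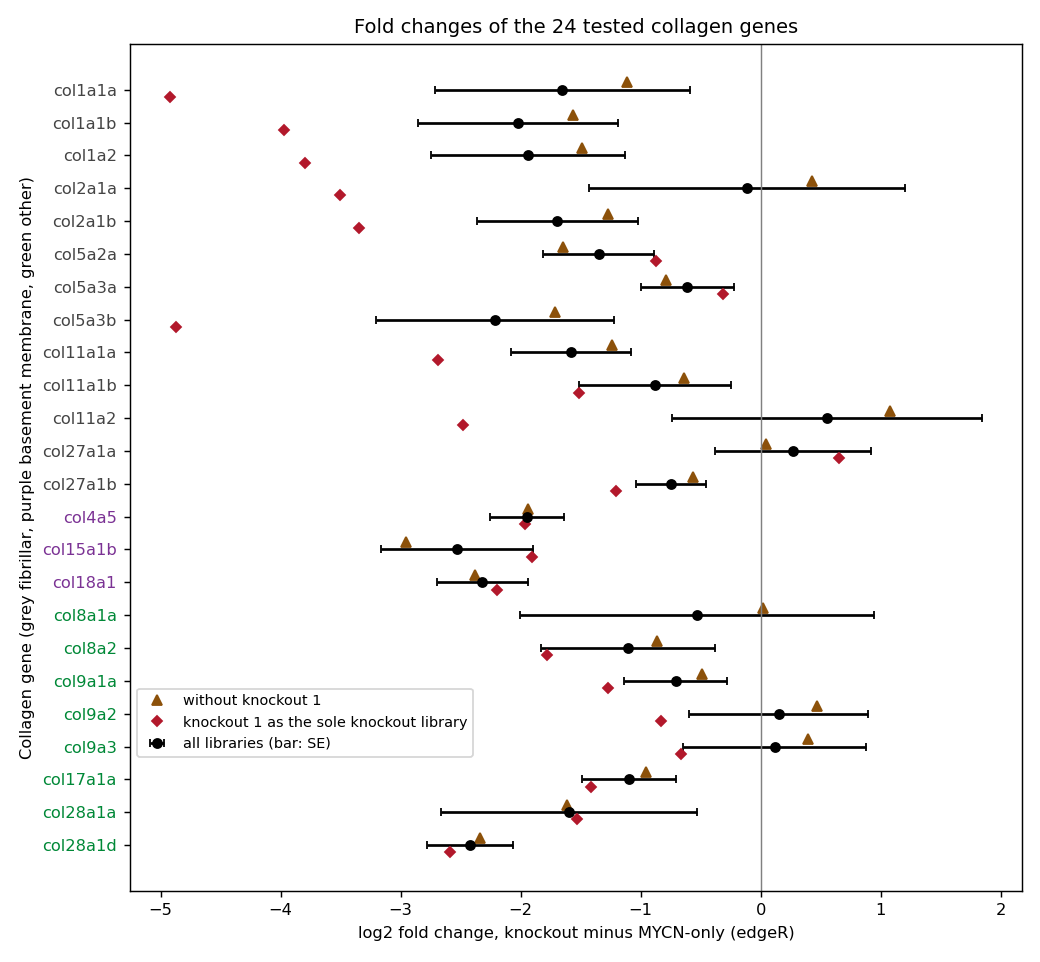
edgeR log2 fold change (knockout minus MYCN-only) of the 24 tested collagen genes with all tumours (black, bar SE), without knockout tumour 1 (triangles) and with knockout tumour 1 as the sole knockout tumour (diamonds; none for col8a1a, whose count in that tumour was 0). The 3 fits share the MYCN-only tumours. The 3 symbols nearly coincide for col4a5, col18a1 and col28a1d and lie far apart for the type I genes, where col1a1a goes from -1.12 without knockout tumour 1 to -4.92 with it alone.

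Type IX collagen decorates the surface of cartilage fibrils, and its genes were read at low levels. col9a1a was lower without overlap, at 2.02, 3.7 and 3.32 CPM in the knockout and 4.15, 6.13 and 4.56 CPM in the MYCN-only tumours (log2 fold change -0.71, SE 0.43, edgeR adjusted p = 0.404). col9a2 and col9a3 overlapped, with log2 fold changes of 0.15 and 0.12 (edgeR adjusted p = 0.933 and 0.951) that turn below 0 under upper-quartile scaling. Between them their levels lay from 0.481 to 3.11 CPM.

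The filter removed 2 cartilage or bone genes. col9a1b had 47 reads in knockout tumour 2 (1.76 CPM) and 0 to 5 reads in the other tumours. col10a1a, named outside the rule and known from hypertrophic cartilage and osteoblasts, was read at 3.59 CPM in knockout tumour 2, at 5.51 CPM in MYCN-only tumour 2 and at 0.481 CPM or less elsewhere. Library 2 of either genotype thus stood out for col10a1a, col2a1a and col11a2, and for col9a2 (3.06 and 3.11 CPM, against 0.692 to 1.63 CPM elsewhere). Tumour 2 was also the highest of each genotype for collagens of other tissues, such as the type I genes, col4a5, col17a1a and col28a1d. The markers matn1, runx2a and runx2b were also highest in tumour 2 of each genotype. The cartilage matrix gene matn1 was at 1.79 and 2.31 CPM in knockout and MYCN-only tumour 2, against 0.361 to 1.63 CPM in the other 4. Levels of runx2b were 8.33 and 15.02 CPM there, against 3.46 to 5.59 CPM. Those of runx2a were 2.69 and 6.22 CPM, against 1.56 to 2.46 CPM. The markers sox9a, matn3a, ucmab, lect1, sp7, bglap, ihha and ta were not highest in tumour 2 of both genotypes. The 11 matched cartilage, bone and notochord markers summed to between 15.05 and 58.0 CPM in the knockout and between 21.0 and 43.8 CPM in the MYCN-only tumours. Of the 8 tested, 5 had a fold change above 0 (median log2 fold change 0.33, which became 0.048 without knockout tumour 1 and -0.37 with it alone). Knockout tumour 1 had the highest sum, through sox9a at 42.5 CPM, a gene also used outside cartilage. Their part in the levels was not tested.

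The remaining genes of the other types sit at cell surfaces and vessels. col17a1a encodes a transmembrane collagen of hemidesmosomes, which anchor basal epithelial cells. It stood at 2.44, 3.59 and 3.16 CPM in the knockout and 4.99, 8.0 and 6.69 CPM in the MYCN-only tumours, without overlap (log2 fold change -1.1, SE 0.39, edgeR adjusted p = 0.221; DESeq2 adjusted p = 0.0499). The type VIII genes encode short chains of hexagonal lattices laid down by vascular and corneal cells. col8a2 was read at 1.71, 5.27 and 1.27 CPM against 2.76, 5.78 and 9.23 CPM, with overlap (log2 fold change -1.1, edgeR adjusted p = 0.436). col8a1a had 0, 18 and 15 reads in the knockout and 0, 12 and 12 reads in the MYCN-only tumours, too few for a comparison of this gene by itself. It passed the filter, and its log2 fold change of -0.53 (SE 1.48) is part of the counts and medians of tested collagens. A count of 0 allows up to 0.156 CPM in knockout tumour 1 and 0.18 CPM in MYCN-only tumour 1 (3 reads per tumour).

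Over the 8 tested genes of the other types, 6 had a fold change below 0. Of them 3 were lower without overlap (12.3% of all genes) and 2 were lower at an unadjusted p under 0.05 (7.57%). Their median log2 fold change was -0.9, and it was -0.49 without knockout tumour 1 and 0.03 without MYCN-only tumour 2. The medians of the 3 classes (-1.35 fibrillar, -2.32 basement membrane, -0.9 other) were not tested against each other, since the members are not replicates.

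Genes listed for collagen folding and modification lay in the other direction. Collagen chains are hydroxylated on proline and lysine, glycosylated and guarded by chaperones in the endoplasmic reticulum before secretion. The list also counts genes, named outside the rule, that do not themselves fold or modify collagen. They are the secretory transport genes sec13, sec23a, sec23b, sec24c, sec24d and ctage5, the transcription factor genes creb3l1 and creb3l2, and the channel gene tmem38b. Of the 27 tested genes of the list, 19 had a fold change above 0 and 8 below, with a median log2 fold change of 0.53. At an unadjusted p under 0.05 there were 7 higher and 0 lower, against 11.5% and 7.57% of all genes. No overlap was seen for 8, all higher, against 11.6% of all genes. edgeR called 0 of them, limma-voom 0 and DESeq2 5, all higher, where DESeq2 called 6.34% of all genes higher. Without knockout tumour 1 the median was 0.04, and edgeR called 4 of the 27 higher, where 11.2% of all genes were called higher. The count is near that share. With knockout tumour 1 as the sole knockout sample the median was 0.69.

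p4hb encodes the disulfide isomerase that is also the beta subunit of collagen prolyl 4-hydroxylase. It was read at 1167, 1047 and 1461 CPM in knockout tumours 1, 2 and 3, against 340, 557 and 412 CPM in MYCN-only. All 3 knockout tumours were well above the others (log2 fold change 1.49, edgeR adjusted p = 0.174). The collagen chaperone genes fkbp10b and fkbp14 were also higher in every knockout tumour. fkbp10b stood at 3.58, 39.7 and 32.9 CPM in the knockout and 1.92, 2.49 and 2.13 CPM in the MYCN-only tumours, so its large values were those of the 2 tumours rich in egg transcripts. plod2, which hydroxylates lysines at the chain ends and was named after its values were seen, was high in knockout tumour 1 alone, at 375 CPM, against 12.3 and 11.95 CPM in knockout tumours 2 and 3 and 12.6 to 43.8 CPM in MYCN-only. That tumour had the lowest type I collagen level.

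Genes of trimming and crosslinking showed no common direction. Of 14 tested, 9 had a fold change below 0 and 5 above (median -0.12), and edgeR called 0. An unadjusted p under 0.05 was reached by 0 lower and 1 higher gene (7.57% and 11.5% of all genes). The one higher gene was loxl5b, of the lysyl oxidase family that crosslinks collagen, at 4.52, 0.934 and 6.02 CPM against 0.421, 0 and 0.635 CPM. bmp1b, which encodes a procollagen protease, had 1.97, 20.7 and 23.6 CPM against 1.2, 7.56 and 1.27 CPM (log2 fold change 2.22, edgeR adjusted p = 0.324). That of loxl3a was -1.59 (edgeR adjusted p = 0.369). With knockout tumour 1 as the sole knockout sample the median of the list turned to 0.59, and without knockout tumour 1 it was -0.41.

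Genes of proteins that meet collagen in the basement membrane, the laminins among them, were lower as a list. Of 14 tested genes, 13 had a fold change below 0 (median log2 fold change -0.94). No overlap was seen for 10, all lower (12.3% of all genes). An unadjusted p under 0.05 was reached by 8 lower and 0 higher genes (7.57% and 11.5% of all genes). edgeR called 0, limma-voom 0, DESeq2 5 and edgeR without knockout tumour 1 called 6, all lower. Over all genes, DESeq2 called 4.06% lower and edgeR without knockout tumour 1 called 3.51% lower. agrn, which encodes the heparan sulfate proteoglycan agrin, was as even among knockout tumours as col18a1, at 41.4, 45.2 and 42.9 CPM against 108, 192 and 104.5 CPM (log2 fold change -1.64, edgeR adjusted p = 0.174). The collagen-binding gene sparc and the laminin gene lama2 had log2 fold changes of -2.14 and -2.12 (edgeR adjusted p = 0.174 for both). Of 4 tested receptor genes, all had a fold change below 0 (47.6% of all genes), and edgeR called 0. DESeq2 called 1 lower and edgeR without knockout tumour 1 called 2 lower. With knockout tumour 1 as the sole knockout sample 3 of the 4 were below 0. The integrin beta 1 gene itgb1a, named outside the rule, went to 0.34 there. The integrin beta 1 gene itgb1b.1 was separated between the genotypes, at 8.46, 6.28 and 5.41 CPM against 14.9, 22.1 and 15.1 CPM (edgeR adjusted p = 0.177), and the log2 fold changes of itgb1b.2 and itga11a were -0.96 and -0.88. itgb1b itself was listed at 0 in every tumour.

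**Figure D5:**
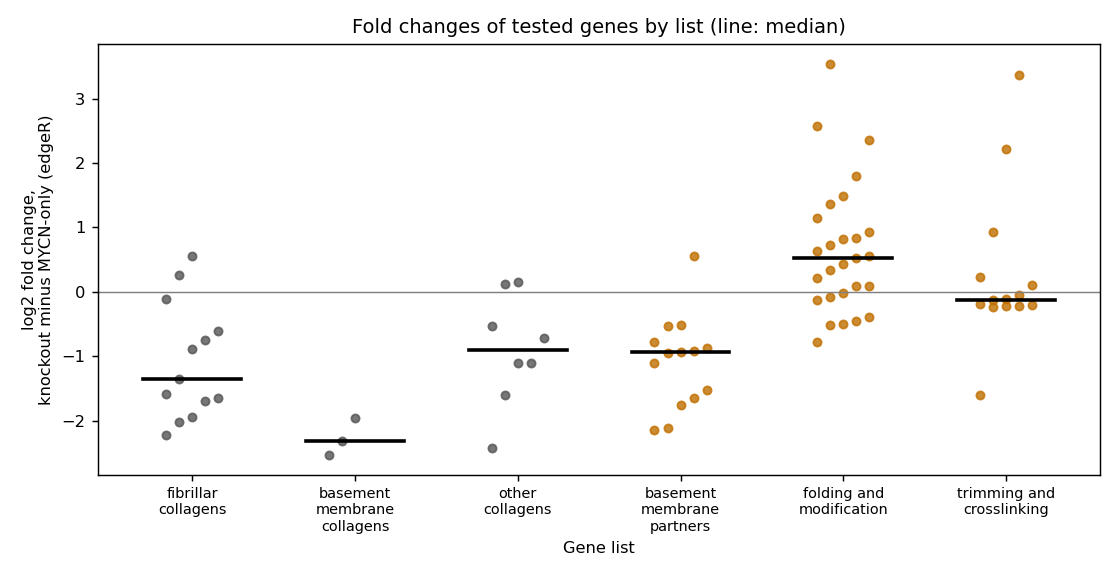
edgeR log2 fold change (knockout minus MYCN-only) of each tested gene of the 3 collagen classes (grey) and of the lists of basement membrane partners, collagen folding and modification, and trimming and crosslinking (orange), with the median as a line. The medians are -1.35, -2.32 and -0.9 for the collagen classes, -0.94 for the partners, 0.53 for folding and modification and -0.12 for trimming and crosslinking.

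Endothelial markers, which a tumour's vessels bring along with their basement membrane, differed among the knockout tumours. The 11 markers summed to 710 CPM in knockout tumour 1, to 326 and 311 CPM in knockout tumours 2 and 3 and to between 502 and 616 CPM in the MYCN-only tumours. Of these, 9 had a fold change below 0 (median log2 fold change -0.33), and edgeR called 0. An unadjusted p under 0.05 was reached by 1 lower and 0 higher gene (7.57% and 11.5% of all genes). Without knockout tumour 1 the median was -1.14 and edgeR called 4 lower (3.51% of all genes). With knockout tumour 1 as the sole knockout sample the median was 0.18. The part of these cells in the basement membrane collagen levels was not tested. Of the 6 macrophage markers 4 had a fold change above 0 (median log2 fold change 0.52), with 0 passing at an unadjusted p under 0.05 in either direction, and the median was -0.2 without knockout tumour 1.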

How the data were processed

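RNA of 6 zebrafish tumours was sequenced as stranded, paired-end total RNA libraries, per the labels' protocols. The submitters' processing notes name featureCounts 1.4.6 (Subread), TopHat2 2.0.14, Bowtie2 2.2.6 and the danRer10 build. How strand and multiply mapped reads were handled, and the annotation, are not stated in these notes. The authors deposited raw counts, 1 row per gene symbol. All 6 columns were matched to samples by title.

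Genes were kept by filterByExpr (12821 of 14781), scaled by TMM and tested with edgeR's quasi-likelihood F test, genotype as the sole term, with Benjamini-Hochberg adjustment over all tested genes and a threshold of 0.05. The test was tried on simulated counts. The standard error of a log2 fold change is its size divided by the root of F. The biological coefficient of variation was 52.5%, and levels are CPM on TMM-scaled totals. Counting precision followed total counts of 12054844 to 33305326. Every pair of libraries differed beyond sampling noise (lowest chi-square over its degrees of freedom 65.2).

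Members, gene lists and tests were chosen with earlier results of these data known. Genes named were the 5 with the smallest p and the 2 with the highest level in each class, partner chains of 1 trimer type, col28a1d and the 3 with the smallest p of each of 4 lists (folding and modification, trimming and crosslinking, receptors, basement membrane partners). Others are marked, except that col4a3bpa and cell type markers are named as checks. The class rule was worded for symbols ending in bp and was applied to col4a3bpa. Missing list members were matched through RefSeq synonyms of GRCz12tu.

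The settings varied were scaling (DESeq2 size factors, upper quartile), the low-count filter, the dispersion (robust), the tool (DESeq2, limma-voom), a replicate block, and single libraries left out. Versions were edgeR 4.0.16, DESeq2 1.42.0 and limma 3.58.1 in R 4.3.3, with figures from Python 3.11.15.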

Additional observations from a re-analysis of the deposited data

How the results depend on the processing

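Direction held for the fibrillar and basement membrane medians under all 16 alternatives, and the fold change was below 0 for 17 to 24 of the tested collagen genes when 1 tumour was left out and for 19 to 22 under the other planned settings. The count of collagen genes called was 6 in DESeq2, 0 to 4 when 1 tumour was left out (4 without knockout tumour 1) and 0 in the other alternatives. The replicate block called 0 collagen genes too, and 8 genes in all. The deviations of same-numbered tumours correlated at -0.0928, -0.153 and 0.19, and those of differently numbered tumours at -0.163 to 0.198. These values do not settle whether the replicate numbers pair the tumours. When 1 tumour was left out, the median log2 fold change ranged from -2 to -0.88 for fibrillar, from -2.62 to -1.8 for basement membrane and from -1.2 to 0.030 for other collagens, the last without MYCN-only tumour 2. With knockout tumour 1 as the sole knockout sample, a fit chosen after seeing the data, these medians were -2.69, -1.96 and -1.53, the last also with col8a1a at the bound that its count of 0 allows. Upper-quartile scaling moved the median of all genes from 0.04 to -0.14.

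Among the collagen genes named by the rule, the fold changes of col8a1a, col9a2, col9a3, col11a2 and col28a1a changed sign in some fits. Outside the rule, that of col2a1a went from -0.11 to 0.43 without knockout tumour 1. That of col27a1a went from 0.27 to -0.051 without knockout tumour 2. Under upper-quartile scaling col9a2 went to -0.022 and col9a3 to -0.062. With knockout tumour 1 alone, col9a2, col9a3 and col11a2 went to -0.83, -0.66 and -2.48. When 1 tumour was left out, the range was -0.41 to 0.94 for col9a2, -0.32 to 1.01 for col9a3, -1.53 to 2.2 for col11a2, -1.16 to 0.21 for col8a1a and -2.16 to 0.030 for col28a1a. The cause was not tested.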
